A study of Mus musculus with 15 samples.

Results

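The genes described here are the numbered laminin chains (Lama, Lamb and Lamc), the type IV collagen chains (Col4a), the numbered integrin alpha and beta subunits (Itga and Itgb) and 4 linkers or proteoglycans of the basement membrane, Nid1, Nid2, Hspg2 and Agrn. They were chosen by symbol alone, leaving out Itga8 and the genes of integrin-binding proteins that share the prefix. The rule found 40 of the 19938 genes that have a probe set with a single symbol: 10 laminin chains, 6 type IV collagen chains, 11 integrin alpha and 9 integrin beta subunits, and the 4 linkers. Each was measured by 1 probe set. Transcripts were measured on 15 one-colour whole-transcript microarrays, from kidney cells sorted for green fluorescence on postnatal days P0, P1, P2, P3 and P4, with 3 samples on each day and about 4 kidneys pooled in each. All animals were CD-1 mice with the transgene Tg(Crym-EGFP)82Gsat, a bacterial artificial chromosome in which Crym sequence drives green fluorescent protein, and all pups were fostered to CD-1 females. The label of the 3 P4 samples is renal vesicle, the epithelial ball that starts a nephron, and that of the 12 earlier samples is cap mesenchyme, the progenitors around the tips of the ureteric bud. The series' design text calls the cells of every day cap mesenchyme and gives no gate for renal vesicle cells, so at P4 the label and the day cannot be told apart. Whether pools of the same day stem from different litters is not stated, and every p-value therefore rests on sample-to-sample spread that may be technical.

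A basement membrane is a sheet of matrix under epithelia. Its laminins are trimers of an alpha, a beta and a gamma chain, and its type IV collagens are trimers of alpha chains drawn from a small set. Nidogens bind laminin to collagen, and the heparan sulfate proteoglycans perlecan (Hspg2) and agrin (Agrn) bind both matrix and cell surface. Integrins, pairs of an alpha and a beta subunit, are the main receptors, and the alpha subunit largely sets what is bound. Nephron progenitors are mesenchymal and acquire a continuous basement membrane as they turn into the epithelium of the renal vesicle. Lama1 is the alpha chain of the first epithelial laminin of the nephron, which it forms with Lamb1 and Lamc1. Lama4 is better known from mesenchyme and vessel walls. In glomeruli that mature later, Lama5 and Lamb2 take the place of earlier laminin chains, and Col4a3, Col4a4 and Col4a5 that of Col4a1 and Col4a2.

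Values are on a log2 scale, so a difference of 1 is a doubling. The median value of an array lay between 6.80 and 6.92. The 5 first replicates, 1 from each day, differed from the other 10 samples, with an interquartile range of 2.14 to 2.27 against 2.52 to 2.77, and 5048 of 11885 genes passed a limma test between these sets of samples. Main values below are therefore followed, where they decide a call, by values from replicates 2 and 3 alone. P3 replicate 3 stood alone on the third principal component, at -33.67 against -3.91 to 14.26 for the others. Crym, whose sequence drives the reporter, fell by 3.57 on the log2 scale at P4 relative to cap mesenchyme. Of 10 markers of cap mesenchyme, 8 fell and none rose at P4, and their summed linear level was 4039 to 4670 at P4 against 7868 to 16686 in cap mesenchyme. The call of Osr1 among them was lost without any 1 of 8 samples (adjusted p up to 0.19). Of 12 markers of the renal vesicle, 9 rose and none fell, with sums of 8446 to 13628 at P4 and 2243 to 11072 in cap mesenchyme. The highest of the cap mesenchyme sums were those of P3 (6945 to 11072), so these genes were already high in samples that carry the earlier label. From P3 to P4, 1 of the 12, Dkk1, rose by limma and none fell, while 5 of the 10 cap mesenchyme markers fell. This call of Dkk1 was lost without any 1 of 4 samples (adjusted p up to 0.109). The calls of Wnt4 and Ccnd1 at P4 were lost without any 1 of 11 and 6 samples (adjusted p up to 0.314 and 0.239), and Emx2 passed the filter on low values only through P3 and P4 samples. None of 8 endothelial markers, Pecam1, Kdr and Cdh5 among them, was above the filter, and their sums overlapped (541 to 629 at P4, 508 to 614 in cap mesenchyme). Tek alone among the 8 lay higher in every P4 sample (5.69 to 5.83) than in all of cap mesenchyme (5.25 to 5.56). Of 9 markers of stroma, 8 were tested, 2 fell and none rose, with sums of 2072 to 2719 at P4 and 1920 to 3638 in cap mesenchyme. These lists also moved within P0 to P3, in limma's test of the slope: 7 markers of the renal vesicle rose (sums of 2243 to 3347 at P0 and 6945 to 11072 at P3), 5 of cap mesenchyme fell (11712 to 16686 and 7868 to 8658), and 3 of stroma fell (3017 to 3638 and 1920 to 2473). Of all genes tested, 3.41% rose and 2.32% fell at P4 against cap mesenchyme, and 1.65% rose and 1.48% fell by slope. The 3 stroma markers were Foxd1 (slope -0.48 per day), Pdgfra and Dcn. The slope call of Pdgfra was lost without P0 replicate 1 (adjusted p = 0.0521), and that of Dcn without any 1 of 5 samples (up to 0.127). Those of Meox1, Cited1 and Gdnf were lost without any 1 of 3, 4 and 5 samples (up to 0.0725, 0.0963 and 0.1), and that of Emx2 without any 1 of 3 (up to 0.0578). Of 8 macrophage and leukocyte markers 2 were tested, of 3 measured platelet and erythroid markers 1, and of 6 measured podocyte markers 3. Of these 3 podocyte markers Podxl alone rose, a call lost without P4 replicate 2 or 3. In cap mesenchyme Podxl lay above the filter only in P2 replicate 1 (6.93) and P3 replicate 3 (7.32). It was therefore tested only because of its P4 samples, which favours a rise. Ptpro, which did not pass the filter and was not tested, had values of 7.02, 6.86 and 6.79 at P4, against 5.73 to 6.21 in cap mesenchyme. The other untested podocyte markers overlapped between the groups. The summed levels of each of these lists overlapped between P4 and cap mesenchyme. Markers of the ureteric bud were higher in sum at P4 (1364 to 1588) than in cap mesenchyme (953 to 1169), and 2 of the 5 tested had higher values that passed (Gata3 and Krt8). Gata3 passed the filter only through its 3 P4 samples and so had to differ, the call of Krt8 was lost without P4 replicate 2, and Ret, Wnt11 and Calb1 were below the filter. Markers of the proximal and distal tubule were also higher in sum (873 to 914 against 653 to 836), with 1 of 4 tested (Lrp2) up. The part of such cells in the results below was not tested, and in sorted bulk RNA fewer cells of a type and less RNA per cell cannot be told apart.

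Genes were tested if their value lay above the median of the whole table (6.86) in at least 3 arrays, which kept 11885 genes and 31 of the 40 members. Itga1 passed this filter only through its P3 and P4 samples and so had to differ between early and late days, and Itga11, Col4a6 and Lama2 passed it in 3, 4 and 5 arrays. The 9 members below it, Itga2, Itga4, Itga7, Itgb2, Itgb3, Itgb6, Itgb7, Lama3 and Lamb3, had values of 4.58 to 6.81 in the 15 samples and were not tested. In limma's moderated test with Benjamini-Hochberg adjustment over the 11885 genes, 8 of the 31 tested members rose at P4 relative to cap mesenchyme (25.8%, beside 3.41% of all genes tested) and 1, Itga9, fell (2.32% of all genes). The 8 were Lama1, Itga6, Lamc1, Itga1, Nid2, Lamb1, Lama4 and Agrn. The median log2 difference was 0.22 over the 31 and 0.00 over all genes tested. Over P0 to P3, 3 members, Lama4, Lamb1 and Lamc1, had a rising slope (1.65% of all genes). None had a falling one by limma (1.48% of all genes), with Itgb5 the 1 member below 0.05 unadjusted. From P3 to P4, 2 members rose, Lama1 and Itga6 (1.04% of all genes), and 0 fell by limma (0.446% of all genes), with Itga9 and Lama4 the 2 below 0.05 unadjusted. By the F test, 7 members differed among the 5 days (5.37% of all genes): the 8 that rose at P4 without Agrn. So 9 members passed a test and 22 passed none, with log2 differences at P4 of -0.15 to 0.49.

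These counts moved with the treatment of the first replicates. With the 2 sets of samples as a term in the fit, 14 members rose at P4 (6.41% of all genes) and 1 fell (5.06%), the 6 added being Col4a1, Col4a2, Itga3, Itgb8, Lama5 and Nid1. Among replicates 2 and 3 alone, 9 rose (3.55%) and 1 fell (2.72%), with Col4a1 added. With the replicate number as a block, 6 members had a rising slope (4.01% of all genes), Nid2, Itga1 and Itga3 being added, and 1, Itgb5, a falling one (4.48%), and 4 rose from P3 to P4 (2.31%), Agrn and Lama5 being added. In replicates 2 and 3 alone, 4 members had a rising slope (1.56%), Nid2 being added, and 1, Itgb5, a falling one (1.82%). There 2 members rose from P3 to P4 (0.917%), Lama1 and Itga6. Without P4 replicate 2, the count at P4 was 4 members up, Itga1, Itga6, Lama1 and Lamb1. Without P4 replicate 3 it was 6 up and 0 down by limma, Itga9 then having an adjusted p of 0.0838.

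**Figure D1:**
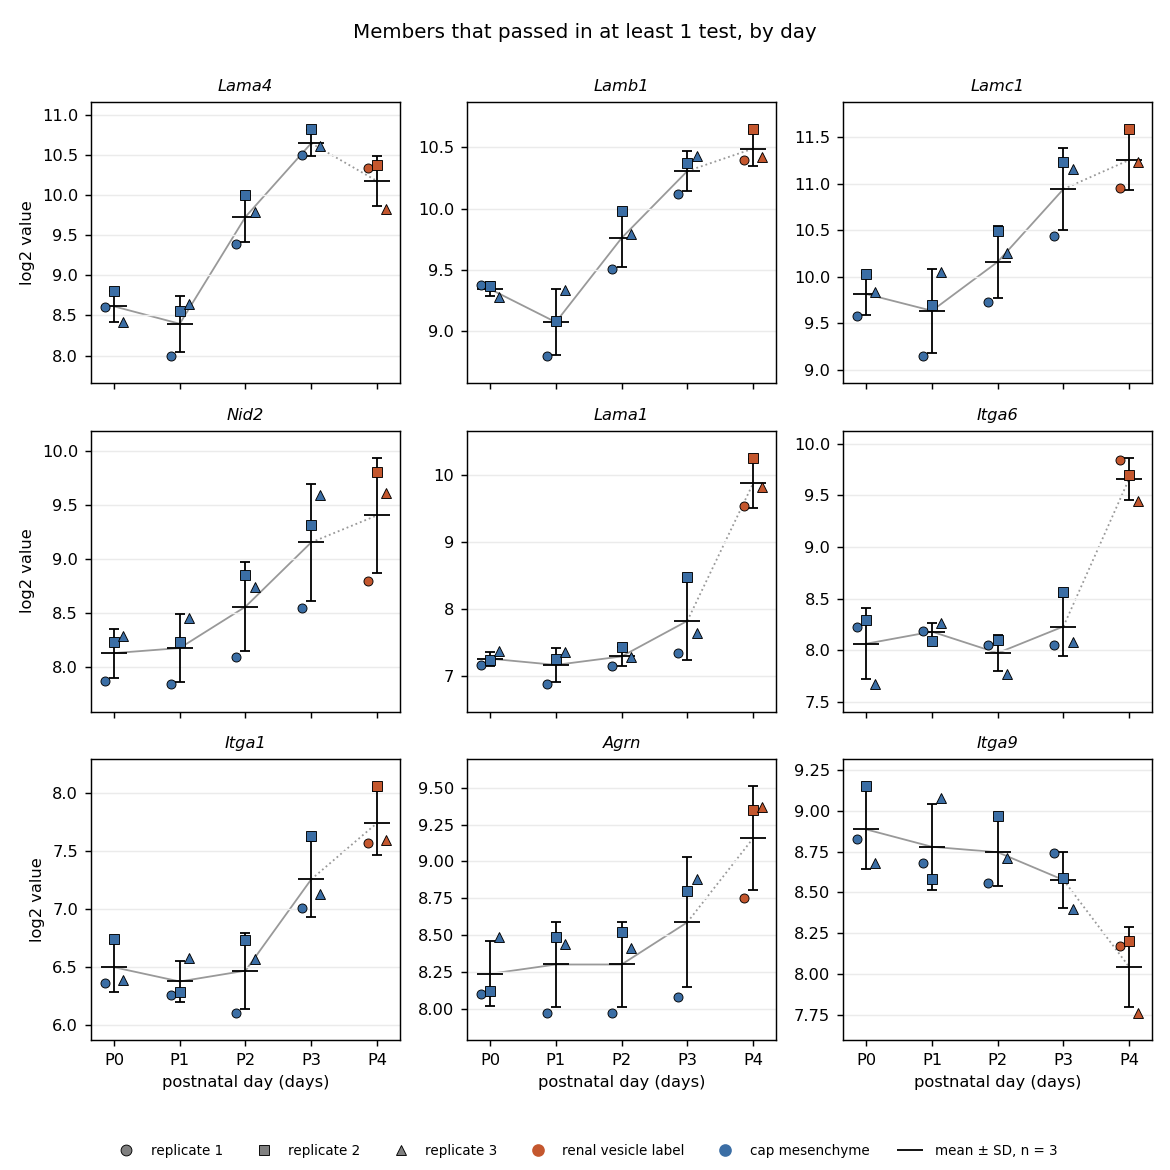
Log2 values (vertical axes, each with its own range) of the 9 members that passed a test, by postnatal day in days, with 1 point per sample (circle, square and triangle for replicates 1, 2 and 3) and the mean ± SD of 3 samples. Lama4, Lamb1, Lamc1 and Nid2 climb between P1 and P3, whereas Lama1 and Itga6 lie high in the 3 P4 samples alone, and Itga9 lies lowest there.

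Lama4, the laminin alpha chain of mesenchyme and vessels, had the steepest slope among the members within cap mesenchyme. Its log2 values were 8.61, 8.81 and 8.42 at P0, then 8.00, 8.55 and 8.64 at P1, 9.39, 10.00 and 9.79 at P2, and 10.50, 10.82 and 10.61 at P3. At P4 they were 10.33, 10.37 and 9.82. All samples of P2 lay above all of P0 and P1, and all of P3 above all of P2. The slope over P0 to P3 was 0.74 ± 0.07 per day (log2, SE), or 1.67-fold a day (limma, adjusted p = 3.44e-05). The P4 samples lay 0.83 above the mean of cap mesenchyme (95% interval 0.48 to 1.18, adjusted p = 0.00592), yet within the range of its samples, 8.00 to 10.82. Relative to P3 alone the difference was -0.47 (interval -0.92 to -0.03, adjusted p = 0.594). The call at P4 was lost without P4 replicate 2 (adjusted p = 0.063).

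Lamb1 and Lamc1, the beta and gamma chains shared by most early laminins, followed a similar course to Lama4 up to P3. Lamb1 had log2 values of 9.38, 9.37 and 9.28 at P0, 8.80, 9.08 and 9.34 at P1, 9.51, 9.98 and 9.79 at P2, 10.12, 10.37 and 10.43 at P3, and 10.40, 10.65 and 10.42 at P4. Its 9 samples of P2 to P4 all lay above its 6 samples of P0 and P1. The slope was 0.36 ± 0.05 per day (log2, SE; limma, adjusted p = 0.00124), and the rise at P4 against cap mesenchyme was 1.83-fold (log2 0.87, interval 0.60 to 1.13, adjusted p = 0.000424). This call held whichever single sample was left out. Lamc1 had log2 values of 9.58, 10.03 and 9.83 at P0, 9.15, 9.70 and 10.05 at P1, 9.73, 10.49 and 10.26 at P2, 10.44, 11.23 and 11.16 at P3, and 10.95, 11.59 and 11.23 at P4. In Lamc1 the first replicate was the lowest of its day on all 5 days, and the first replicates lay 0.587 below the others on average. The slope was 0.39 ± 0.09 per day (log2, SE; limma, adjusted p = 0.0227). The rise at P4 was 2.18-fold (log2 1.12, interval 0.66 to 1.58, adjusted p = 0.00467). Among replicates 2 and 3 alone the slope was 0.43 per day (adjusted p = 0.00195) and the P4 difference 1.07 (adjusted p = 0.000848). The slope call was lost without P0 replicate 1, P0 replicate 3, P3 replicate 2 or P3 replicate 3 (adjusted p up to 0.0822), and the P4 call without P4 replicate 2 (0.0572). For neither chain did P4 differ from P3 by the test (log2 0.18 for Lamb1, interval -0.15 to 0.52, and 0.31 for Lamc1, interval -0.27 to 0.90).

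Lama1, the alpha chain of the first epithelial laminin, had the largest P4 change among the 31 tested members. It had log2 values of 9.53, 10.25 and 9.82 at P4, against a lowest value of 6.87, a median of 7.31 and a highest value of 8.47 in cap mesenchyme. The P4 samples lay above all 12 cap mesenchyme samples, of which P3 replicate 2 (8.47) and P3 replicate 3 (7.64) were the highest. Expression was 5.60-fold higher at P4 than in cap mesenchyme (log2 2.49, interval 2.07 to 2.91; limma, adjusted p = 2.66e-06) and 4.14-fold higher than at P3 (log2 2.05, interval 1.52 to 2.58, adjusted p = 0.000687). Within cap mesenchyme the slope was 0.18 ± 0.08 per day (log2, SE) and did not pass (adjusted p = 0.351). The first replicates alone gave a difference of 2.40 and replicates 2 and 3 alone one of 2.53 against cap mesenchyme. Both calls held with any 1 sample left out.

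The other laminin chains passed no test. Lama5, the alpha chain of mature epithelial and glomerular basement membranes, averaged 7.85 ± 0.24 at P4 and 7.44 ± 0.23 at P3 (log2, SD, n = 3 each), and differed by 0.26 from cap mesenchyme (interval -0.12 to 0.63; limma, adjusted p = 0.63). In Lama5 the first replicate was again the lowest of each day, and with that set of samples as a term in the fit the same difference passed (adjusted p = 0.0358), while within replicates 2 and 3 alone it did not (0.22, adjusted p = 0.33). Lamb2, the beta chain of the mature glomerulus, lay at 7.71 to 8.14 at P4 and 7.74 to 8.19 in cap mesenchyme, with a difference of 0.06 (interval -0.19 to 0.31). Lama2, a chain of muscle and nerve basement membranes, and Lamc3 differed by 0.13 each (intervals -0.06 to 0.33 and -0.09 to 0.36). Lama3 and Lamb3, chains of an epidermal laminin, were below the filter in all 15 samples.

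In limma, 0 of the 6 type IV collagen chains passed in any of the 4 tests, with 2 of them, Col4a1 and Col4a2, below 0.05 unadjusted at P4 against cap mesenchyme. Col4a1 and Col4a2 form the collagen network common to most basement membranes. Col4a1 had log2 values of 8.16, 8.61 and 8.60 at P4, against a lowest value of 7.68, a median of 7.97 and a highest value of 8.39 in cap mesenchyme. P4 replicates 2 and 3 lay above every cap mesenchyme sample and P4 replicate 1 did not. The difference was 0.45 (interval 0.17 to 0.72; limma, adjusted p = 0.056), and 0.52 among replicates 2 and 3 alone (adjusted p = 0.0122). Col4a2 differed by 0.28 (interval 0.04 to 0.51, adjusted p = 0.222). The other chains had P4 means close to those of cap mesenchyme. Col4a3, Col4a4 and Col4a5, which build the network of the mature glomerular membrane, and Col4a6, known from Bowman's capsule and smooth muscle, differed by -0.01 to 0.07, and their intervals together ran from -0.28 to 0.35.

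**Figure D2:**
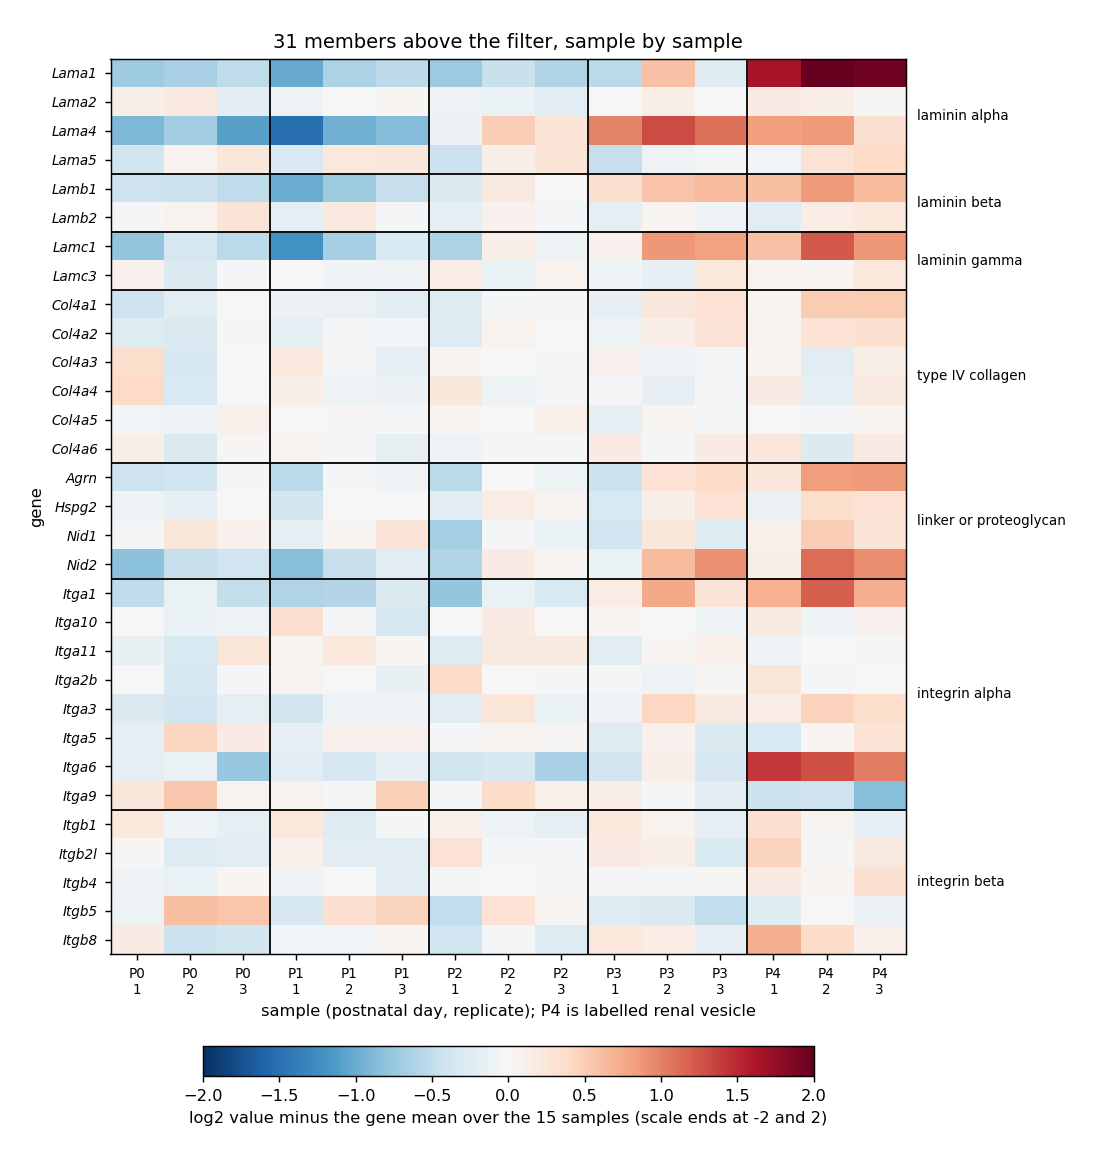
Log2 value of each of the 31 tested members (rows, grouped by family) minus its mean over the 15 samples (columns, P0 to P4 with 3 replicates a day), in colours that end at -2 and 2. The rows of Lama4, Lamb1, Lamc1 and Nid2 turn from blue to red at P2 or P3, those of Lama1 and Itga6 at P4 (with P3 replicate 2 already red in Lama1), and the first replicate of a day is often the bluest in the rows of Lamc1, Nid2, Agrn and Lama5.

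Of the 4 linkers and proteoglycans, Nid2 and Agrn rose at P4 and Nid1 and Hspg2 passed no test. Nid2, nidogen 2, had log2 values of 7.87, 8.23 and 8.29 at P0, 7.84, 8.23 and 8.46 at P1, 8.09, 8.85 and 8.74 at P2, 8.55, 9.32 and 9.60 at P3, and 8.80, 9.81 and 9.61 at P4. The first replicate was the lowest on each day, and the first replicates lay 0.684 below the others on average. The rise at P4 was 1.87-fold against cap mesenchyme (log2 0.90, interval 0.39 to 1.42; limma, adjusted p = 0.0393), and the slope of 0.35 ± 0.10 per day (log2, SE) did not pass (adjusted p = 0.0736). With the replicate number as a block the slope passed (adjusted p = 0.000111). Among replicates 2 and 3 alone the P4 difference was 1.00 (adjusted p = 0.000564) and the slope 0.40 per day (adjusted p = 0.00125). Over all samples the P4 call was lost when any of 8 samples was left out: P0 replicate 1, 2 or 3, P1 replicate 1 or 2, P2 replicate 3, or P4 replicate 2 or 3 (adjusted p up to 0.268). Its relative Nid1 averaged 8.15 ± 0.20 at P4 and 7.74 ± 0.32 at P3 (log2, SD, n = 3 each), and lay 0.35 above cap mesenchyme (interval 0.02 to 0.68, adjusted p = 0.301).

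Agrn, which codes for agrin, had log2 values of 8.75, 9.35 and 9.37 at P4, against 7.97 as the lowest, 8.42 as the median and 8.88 as the highest value in cap mesenchyme. P4 replicate 1 fell within the cap mesenchyme range, but it was the highest of the 5 first replicates, which in cap mesenchyme lay between 7.97 and 8.10. The rise was 1.74-fold (log2 0.80, interval 0.39 to 1.21; limma, adjusted p = 0.0207), with differences of 0.72 in the first replicates and 0.84 in replicates 2 and 3 alone (adjusted p = 0.00122). The call over all samples was lost without P4 replicate 2 or 3 (adjusted p up to 0.158). From P3 to P4 the difference of 0.57 did not pass (adjusted p = 0.559), and did with the replicate number as a block (adjusted p = 0.017). In replicates 2 and 3 alone this difference was 0.52 and did not pass (limma, adjusted p = 0.16). Hspg2, which codes for perlecan, differed by 0.22 from cap mesenchyme (interval -0.08 to 0.51).

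Among the 8 integrin alpha subunits tested, 2 rose and 1 fell at P4. Itga6, the alpha subunit of epithelial laminin receptors, had log2 values of 9.84, 9.70 and 9.44 at P4, against a lowest value of 7.67, a median of 8.10 and a highest value of 8.56 in cap mesenchyme. The groups were separated by a wide gap, and within cap mesenchyme Itga6 showed no trend that passed (0.03 ± 0.06 per day, log2, SE). It was 2.93-fold higher at P4 than in cap mesenchyme (log2 1.55, interval 1.24 to 1.86; limma, adjusted p = 9.81e-06) and 2.70-fold higher than at P3 (log2 1.43, interval 1.04 to 1.83, adjusted p = 0.00103). Lama1 and Itga6 were the 2 members that rose from P3 to P4. Both Itga6 calls held with any 1 sample left out, and replicates 2 and 3 differed from the first replicates in Itga6 by -0.076 on average (adjusted p = 0.625).

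Itga1, the alpha subunit of a collagen receptor, had log2 values of 6.36, 6.74 and 6.39 at P0, 6.26, 6.28 and 6.58 at P1, 6.10, 6.73 and 6.57 at P2, 7.01, 7.63 and 7.13 at P3, and 7.57, 8.06 and 7.60 at P4. Its 6 samples of P3 and P4 lay above all 9 of P0 to P2. It was 2.14-fold higher at P4 than in cap mesenchyme (log2 1.10, interval 0.75 to 1.45; limma, adjusted p = 0.000606), and the call held with any 1 sample left out. The slope of 0.24 ± 0.07 per day (log2, SE) did not pass (adjusted p = 0.0706), and did with the replicate number as a block (adjusted p = 0.00347). In replicates 2 and 3 alone the slope of Itga1 was 0.27 per day and did not pass (limma, adjusted p = 0.0706). Its values before P3 all lay below the filter of 6.86.

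Itga9, the alpha subunit of a receptor for tenascin C and related ligands, was the 1 tested member that fell at P4. It had log2 values of 8.17, 8.20 and 7.76 at P4, against 8.40 as the lowest, 8.70 as the median and 9.15 as the highest value in cap mesenchyme, so that the groups did not overlap. Expression was 1.63-fold lower at P4 (log2 -0.70, interval -1.01 to -0.40; limma, adjusted p = 0.00697). The difference was -0.52 in the first replicates and -0.79 in replicates 2 and 3 alone (adjusted p = 0.025). Relative to P3 it was -0.53 and did not pass (adjusted p = 0.303), and the P4 call against cap mesenchyme was lost without P4 replicate 3 (0.0838).

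Itga3, the alpha subunit of the laminin receptor of podocytes and mature tubules, had log2 values of 7.57, 7.87 and 7.77 at P4, against 7.03 to 7.83 with a median of 7.31 in cap mesenchyme. The difference of 0.40 did not pass (interval 0.14 to 0.67; limma, adjusted p = 0.08), and the slope of 0.15 per day did not either (adjusted p = 0.141). With the replicate number as a block the slope of Itga3 passed (adjusted p = 0.0159). In replicates 2 and 3 alone it was 0.19 per day and did not pass (limma, adjusted p = 0.0789). The other alpha subunits tested, Itga5 (a fibronectin receptor), Itga2b (platelets), Itga10 and Itga11 (collagen receptors), differed by -0.05 to 0.09 and passed nothing. Of those below the filter, Itga2 and Itga4 had values of 5.70 to 6.73, and Itga7, a muscle laminin receptor, 6.23 to 6.81.

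In limma, 0 of the 5 integrin beta subunits tested passed over all samples, with Itgb4 and Itgb8 below 0.05 unadjusted at P4 against cap mesenchyme and Itgb5 for the slope. Itgb1, the partner of most of the alpha subunits above, had log2 values of 10.82, 10.56 and 10.33 at P4, against 10.25 to 10.72 with a median of 10.44 in cap mesenchyme. The difference was 0.09 (interval -0.20 to 0.37), so that a change of Itgb1 of the size seen in Itga6 or Itga1 lies outside its interval. Itgb4, which pairs with Itga6 in hemidesmosomes, lay 0.22 higher at P4 (interval 0.04 to 0.39; limma, adjusted p = 0.197). Its 3 P4 values, 7.04 to 7.29, lay just above its highest cap mesenchyme value of 7.03. Itgb8, a subunit known for activating latent TGF-beta, had values of 8.00, 7.65 and 7.39 at P4, against 6.86 to 7.50 with a median of 7.24 in cap mesenchyme (difference 0.49, interval 0.18 to 0.80, adjusted p = 0.0701). Itgb5, a vitronectin receptor subunit, had a slope of -0.23 ± 0.08 per day over P0 to P3 (log2, SE) that did not pass (adjusted p = 0.157). The slope was larger in replicates 2 and 3, where it was -0.31 per day (adjusted p = 0.00385), against -0.06 in the first replicates, and it passed with the replicate number as a block (adjusted p = 0.0113). Itgb2l, a leukocyte integrin gene, differed by 0.25 at P4 (interval -0.04 to 0.54). Itgb2, Itgb3, Itgb6 and Itgb7 were below the filter.

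**Figure D3:**
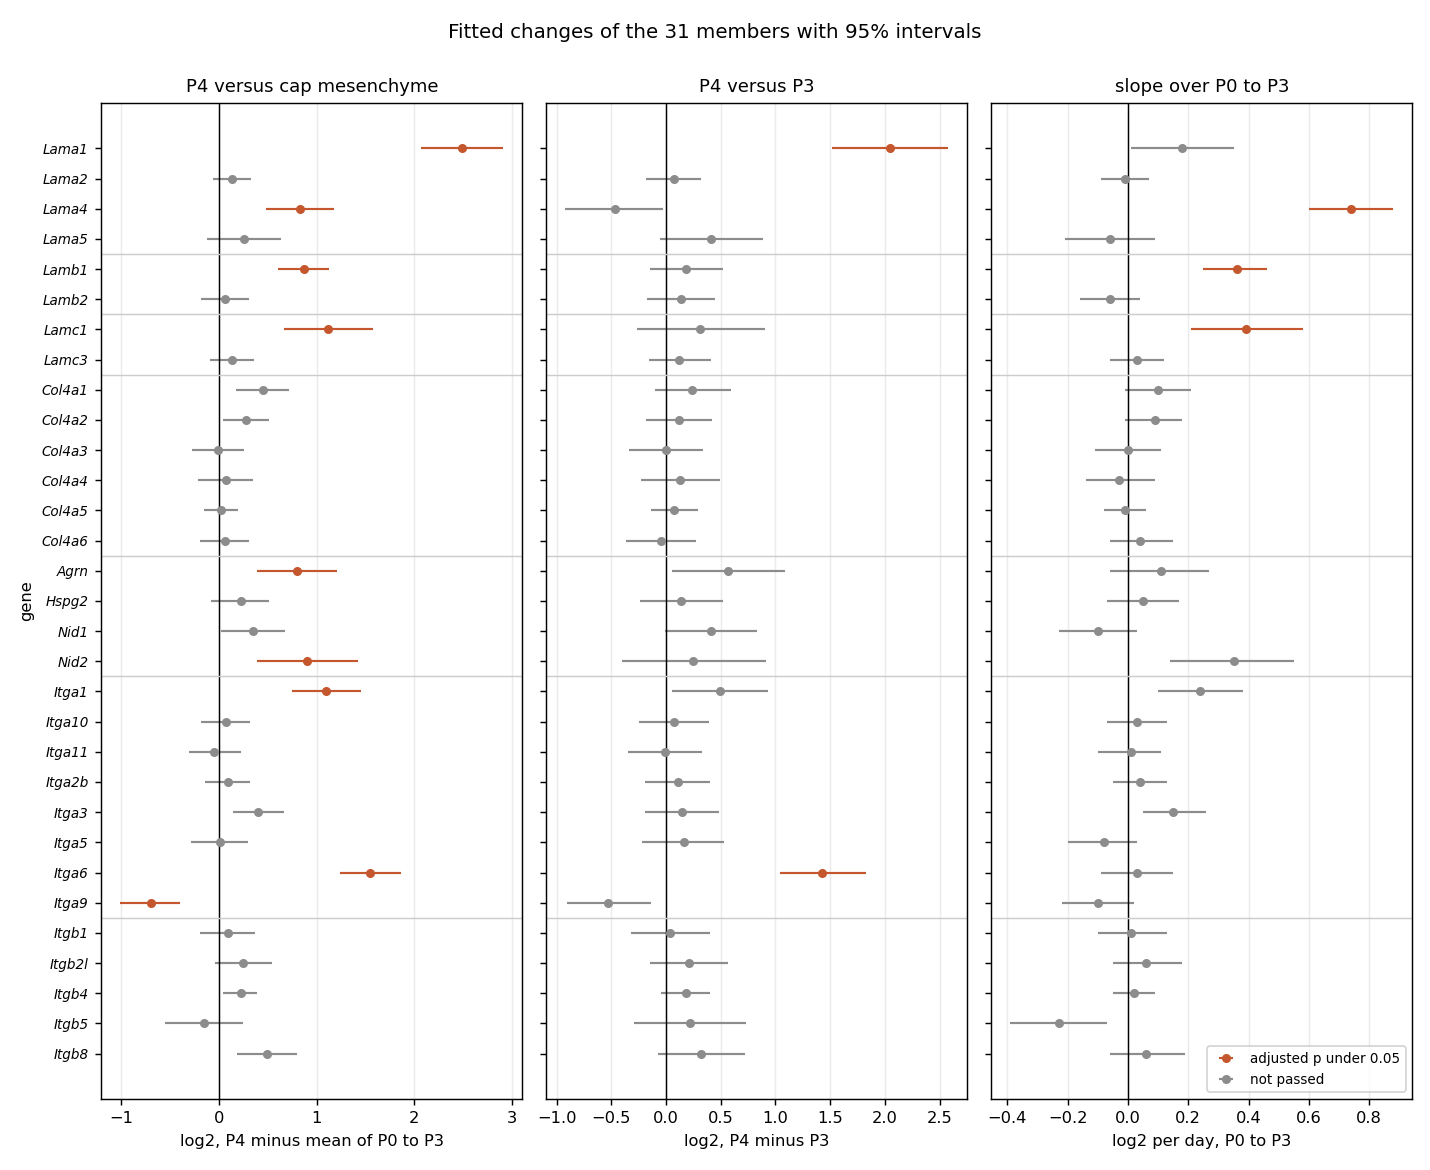
Fitted log2 change (points) with its 95% interval (bars) for the 31 tested members, grouped by family, at P4 against the mean of P0 to P3 (left), at P4 against P3 (middle) and per day over P0 to P3 (right), with changes of adjusted p under 0.05 in orange. Lama1 and Itga6 pass in the left and middle panels, Lama4, Lamb1 and Lamc1 in the left and right ones, and the highest type IV collagen interval in the left panel ends at 0.72.

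How the balance between chains moved was tested in each sample as the log2 difference between 2 chains, for 10 pairs, with an exact two-sided permutation test over the 15 samples (455 arrangements, smallest possible p = 0.0022) and Benjamini-Hochberg adjustment over the pairs. Only the change of such a difference is read here, since different probe sets have different scales, and pairs that share a chain are not independent of each other. Lama1 minus Lama4 was -0.80, -0.12 and 0.00 at P4, against -3.16 to -1.05 in cap mesenchyme, a shift of 1.66 (exact test, adjusted p = 0.00549). The daily means moved in both directions. The mean was -1.36 at P0, -1.24 at P1, -2.44 at P2 and -2.83 at P3, as Lama4 climbed, and then -0.31 at P4. This call was lost without P4 replicate 3 (exact test, adjusted p = 0.0549). Lama5 minus Lama1 shifted by -2.23, Itga3 minus Itga6 by -1.15 and Itga3 minus Itga9 by 1.10 (exact tests, adjusted p = 0.00549 each). Lama5 and Itga3 themselves differed by 0.26 and 0.40 at P4. The shifts against Lama1 and Itga6 thus largely repeat the rises of these genes (2.49 and 1.55). That against Itga9 adds its fall (-0.70) to the difference in Itga3. Lama1, Itga6 and Itga9 alone also separated P4 from cap mesenchyme. In these 3 pairs as in the first, the 3 P4 samples lay outside the range of the 12 cap mesenchyme samples. These 4 pairs also passed in replicates 2 and 3 alone (exact tests, adjusted p = 0.037 each, where the smallest unadjusted p is 0.0222).

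Set against Col4a1, the chains of the mature glomerular collagen had small shifts below 0. Col4a3, Col4a4 and Col4a5 had log2 values of 6.73 to 7.45 in the 15 samples, near the filter of 6.86. Their own P4 differences were -0.01 to 0.07, so these shifts largely repeat the difference of 0.45 in Col4a1. Col4a5 minus Col4a1 was -1.11, -1.60 and -1.49 at P4, against -1.37 to -0.70 in cap mesenchyme, a shift of -0.43 (exact test, adjusted p = 0.0176) that was lost without P4 replicate 2 or 3 (adjusted p up to 0.11). Col4a3 minus Col4a1 shifted by -0.45 (exact test, adjusted p = 0.0628), Col4a4 minus Col4a1 by -0.38 and Col4a6 minus Col4a2 by -0.22 (exact tests, adjusted p = 0.145 each), none of which passed. These calls depended on the first replicates: with arrangements kept within the 2 sets of samples all 3 passed (adjusted p = 0.00741, 0.0389 and 0.019 in that order, exact tests), and in replicates 2 and 3 alone Col4a3 minus Col4a1 shifted by -0.48 (exact test, adjusted p = 0.037). Col4a4 minus Col4a1 and Col4a6 minus Col4a2 did not pass there (exact tests, adjusted p = 0.0833 and 0.0635). Lamb2 minus Lamb1 averaged -2.51 ± 0.21 at P4 and -1.70 ± 0.56 in cap mesenchyme (SD, n = 3 and 12), a shift of -0.81 that did not pass (exact test, adjusted p = 0.0628). Its daily means were -1.32, -1.14, -1.87 and -2.46 from P0 to P3 and -2.51 at P4, so the movement preceded P4. Nid2 minus Nid1 behaved in the same way, with daily means of 0.17, 0.27, 0.98 and 1.42 from P0 to P3 and 1.26 at P4 (shift 0.55, exact test, adjusted p = 0.145). No laminin or collagen pair moved toward a mature glomerular chain in a way that passed. Lama5, Lamb2, Col4a3, Col4a4 and Col4a5 each had a shift below 0 against its earlier partner. Their own P4 differences were 0.26, 0.06, -0.01, 0.07 and 0.02 in that order, and none passed in the main fit. These shifts therefore largely repeat the higher values of the earlier partners, not a loss of the mature chains.

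**Figure D4:**
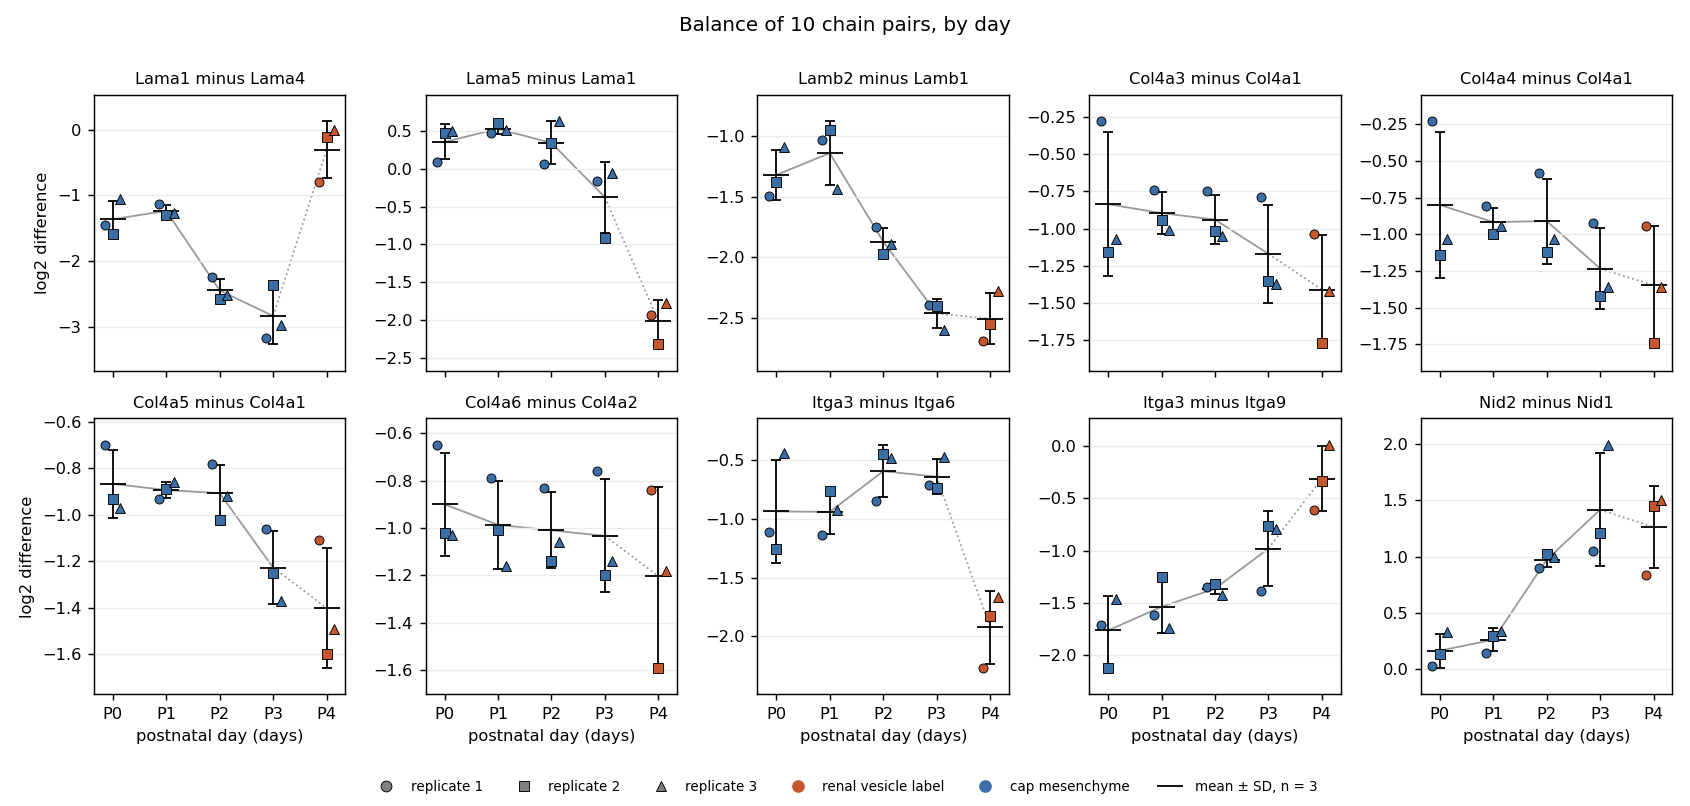
Log2 difference between 2 chains (vertical axes, each with its own range) in every sample for the 10 pairs, by postnatal day in days, with the mean ± SD of the 3 samples of a day. Lama1 minus Lama4 falls to P3 and is highest at P4, Lama5 minus Lama1 and Itga3 minus Itga6 are lowest at P4, and Lamb2 minus Lamb1 and Nid2 minus Nid1 reach their P4 level by P3.

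The stretches upstream of called members are shown where a promoter entry lies at least partly outside the gene. The genes shown had different courses. Lamb1 was raised from P2 and Itga1 from P3, and Agrn passed only at P4 against cap mesenchyme in the main fit. The RefSeq promoter table (GRCm38.p6) holds an entry for 28 of the 40 members and for 4 of the 9 that passed a test, Lamb1, Itga1, Agrn and Itga9. The entry of Itga9 lies inside the gene and is not shown, and Lama1, Lama4, Lamc1, Nid2 and Itga6 are named only. Bases that fall inside the annotated gene were left out. The stretches are chr12:31265043-31265145 on the plus strand for Lamb1, chr13:115101965-115102214 on the minus strand for Itga1 and chr4:156197534-156197738 on the minus strand for Agrn. Capitals mark matches on either strand to 8 motifs, namely the TATA box (TATAAA), the CCAAT box (CCAAT), the core of the Sp1 site (GGGCGG), the Tcf sites of Wnt target genes (CTTTGAA and also CTTTGAT), a half-site of Hnf1 factors (GTTAAT) and the E boxes of Snail and Myc factors (CAGGTG and also CACGTG), and neighbouring matches to the Sp1 core may overlap.
Lamb1: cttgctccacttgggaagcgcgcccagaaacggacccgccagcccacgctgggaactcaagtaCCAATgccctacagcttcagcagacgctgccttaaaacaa
Itga1: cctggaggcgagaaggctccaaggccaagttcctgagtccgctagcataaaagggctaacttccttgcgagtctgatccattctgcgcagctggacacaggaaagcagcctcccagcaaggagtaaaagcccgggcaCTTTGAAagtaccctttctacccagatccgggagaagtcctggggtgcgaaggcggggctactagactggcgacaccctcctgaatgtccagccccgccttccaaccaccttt
Agrn: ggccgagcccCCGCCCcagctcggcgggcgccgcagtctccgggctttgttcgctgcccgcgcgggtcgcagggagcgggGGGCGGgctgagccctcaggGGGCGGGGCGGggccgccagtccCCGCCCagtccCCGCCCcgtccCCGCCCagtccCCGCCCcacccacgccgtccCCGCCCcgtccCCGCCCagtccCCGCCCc

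The stretch of Lamb1 held 1 CCAAT, which 13.9% of the 32851 promoters of the table hold in the same window of 103 bases. That of Itga1 held 1 CTTTGAA, found in 4.46% of promoters over 250 bases, and none of the other 7 motifs. That of Agrn held 11 matches to the Sp1 core, which 25.6% of promoters hold at least once over the same 205 bases. Its GC content was 84.4%, beside a median of 51.7% for that window, while Lamb1 had 58.3% (median 50.5%) and Itga1 57.6% (median 52.4%). The 3 stretches, which differ in length, shared no motif of the 8. The full Lamb1 entry of 250 bases, part of it inside the gene, held 2 matches to the Sp1 core, which Agrn also held.

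Partner genes of the same matrix were counted from lists of known roles. Of 22 other basement membrane genes, 16 were tested, 4 rose at P4 and none fell, beside 3.41% up among all genes tested, and the median log2 difference was 0.30. The 4 were Frem2 and Fras1, large matrix proteins of the complex that anchors epithelia to underlying mesenchyme, Npnt (nephronectin), a ligand of the integrin whose alpha subunit is Itga8, and Egfl6, a basement membrane protein with EGF repeats. Frem2 had log2 values of 9.80, 10.38 and 10.17 at P4, against 7.59 to 9.70 in cap mesenchyme, and was 3.16-fold higher (log2 1.66; limma, adjusted p = 3.36e-05). Npnt had values of 8.02, 8.79 and 8.59 at P4, above its highest cap mesenchyme value of 7.72 (log2 difference 0.98, adjusted p = 0.000352). Fras1 rose by 1.29 and Egfl6 by 1.32 on the log2 scale. The calls of Frem2, Npnt and Fras1 were kept with any 1 sample left out. Egfl6 had 6.17 to 6.74 in the 9 samples of P0 to P2 and, like Itga1, passed the filter only through its P3 and P4 samples, so it had to differ between early and late days. Within P0 to P3, Frem2 had a rising slope (0.47 per day), as Lama4, Lamb1 and Lamc1 did, and Frem1, named here after its values were seen, a falling one (-0.42 per day). From P3 to P4, Npnt, Frem1 and Fras1 rose, beside 1.04% of all genes tested. Unlike Lama1 and Itga6, Frem1 at P4 (8.18 to 8.23) stayed below its P0 values (8.36 to 8.52). Its rise followed a low at P3 (6.64 to 7.64), and against cap mesenchyme Frem1 did not pass (limma, adjusted p = 0.34). The 3 calls from P3 to P4 were each lost without P4 replicate 2, P4 replicate 3 or P3 replicate 3 (adjusted p up to 0.205). Those of Frem1 and Fras1 were also lost without P3 replicate 1, that of Frem1 without P4 replicate 1, and that of Fras1 without P0 replicate 2 or 3, P1 replicate 2, or P2 replicate 2 or 3.

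Of 25 matrix enzymes and chaperones, 19 were tested, 2 rose and 2 fell at P4, beside 3.41% up and 2.32% down among all genes tested. Their median log2 difference was 0.03. The protease gene Adamts1 rose by 1.15 and Sulf1, which removes sulfate groups from heparan sulfate, by 0.80 on the log2 scale. P4ha3 and P4ha1, which code for collagen prolyl hydroxylase subunits, fell by 1.02 and 0.60. The call of Sulf1 was lost without P4 replicate 2 (adjusted p = 0.107), and that of P4ha1 without any 1 of 9 samples: P0 replicate 2, P1 replicate 2 or 3, P2 replicate 1, 2 or 3, P3 replicate 2, or P4 replicate 1 or 3 (up to 0.307). Of the 16 receptors outside the integrin family, 14 were tested. Gpc4 (glypican 4, log2 1.04), Dag1 (dystroglycan, a receptor for laminin and agrin, 0.91) and Grip1 (an adaptor of the Fras1 complex, 0.53) rose. Gpc3 (glypican 3) fell by 0.41, and the shares of all genes tested are those given above. Gpc4 had 6.53 to 6.83 at P0 and P1, and passed the filter only through samples of P2 to P4. Like Itga1, it therefore had to differ between early and late days. Dag1 had values of 8.85, 9.77 and 9.33 at P4, against 7.90 to 8.91 in cap mesenchyme, and its call and that of Grip1 were lost without P4 replicate 2 or 3 (up to 0.151), as that of Gpc3 was without P4 replicate 3 (0.161). Of the integrin adaptors 14 were tested, among them the genes of talin, a kindlin (Fermt2) and the integrin-linked kinase. By limma 0 passed at P4 against cap mesenchyme, for the slope or at P4 against P3. With 3.41% of all genes up and 2.32% down at P4, 0 of 14 does not set adaptors apart from other genes. Fermt2 and Tns3, 2 of the 14, were below 0.05 unadjusted at P4 against cap mesenchyme. Lims2, Fermt1, Fermt3 and Itgb1bp2 did not pass the filter and were not tested. Fermt1, another kindlin gene, had log2 values of 6.11, 7.30 and 6.28 at P4, against 4.89 to 5.33 in cap mesenchyme. Values of the other untested adaptors overlapped between the groups.

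Among 5 tested ligands that integrins bind in interstitial matrix, Tnc alone passed, and it fell, beside 2.32% of all genes tested. Tnc had log2 values of 7.65, 7.84 and 7.34 at P4, against 8.15 as the lowest and 9.07 as the highest value in cap mesenchyme, a 2.08-fold difference (log2 -1.06; limma, adjusted p = 0.00089). Itga9, a subunit of one of its receptors, fell in the same comparison. Of the 6 integrins named by letter 1 was tested, Itgav, the partner of Itgb5 and Itgb8, which differed by -0.08 (interval -0.27 to 0.11). Itga8, left out of the members by the rule, fell 4.78-fold at P4 (log2 -2.26, adjusted p = 8.66e-07), while its ligand Npnt rose.

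**Figure D5:**
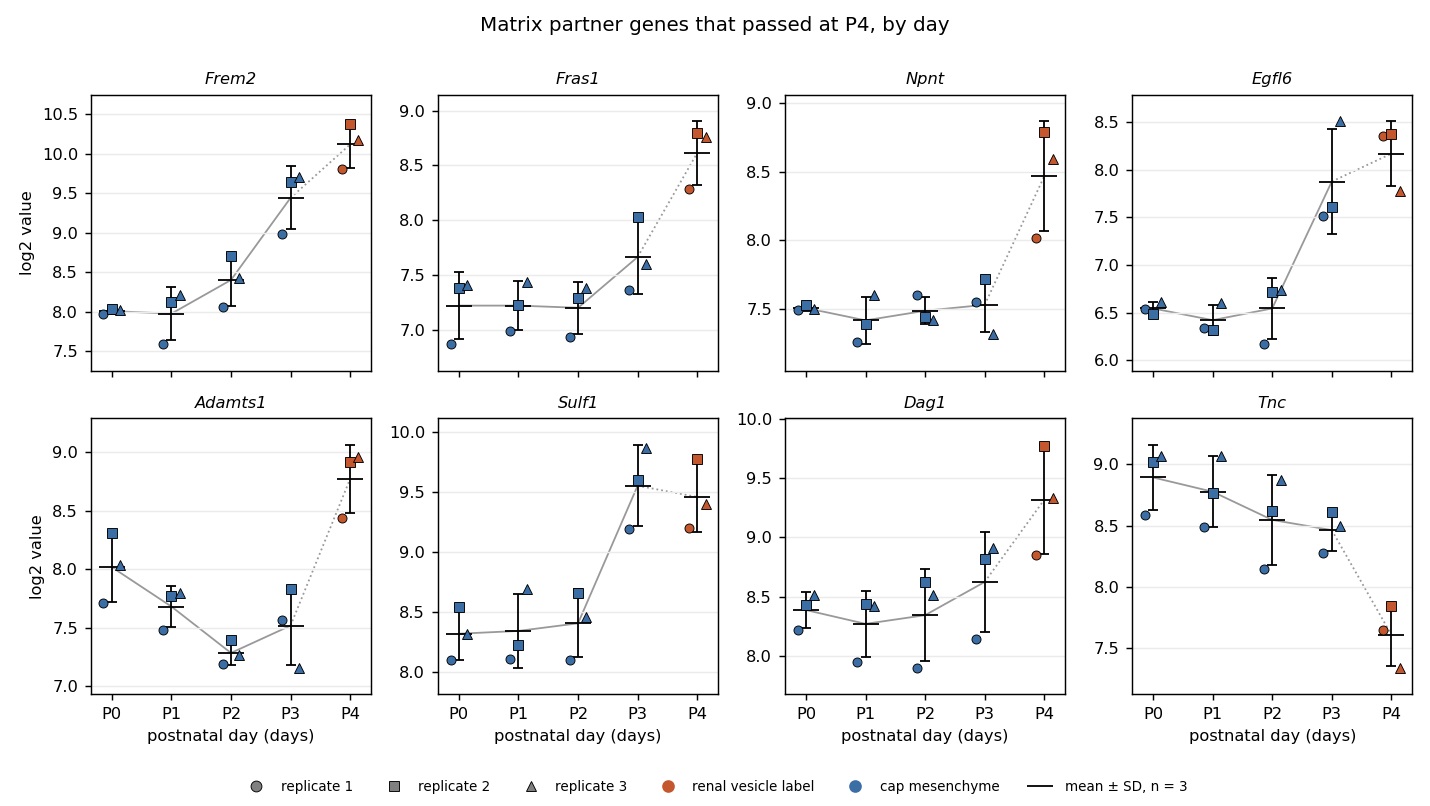
Log2 values (vertical axes, each with its own range) of 8 partner genes by postnatal day in days, with 1 point per sample and the mean ± SD of the 3 samples of a day. Frem2, Egfl6 and Sulf1 are already raised at P3, whereas Fras1, Npnt and Adamts1 are highest at P4 and Tnc is lowest there.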

How the data were processed

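Transcripts of 15 samples were measured on Affymetrix one-colour arrays after 1 round of amplification (WT-Ovation Pico). The authors deposited 1 table of log2 values for 35557 probe sets, made with Affymetrix Expression Console. The software's version, its summarization algorithm and the build behind the probe sets are not stated in the labels. Where dim values hold background, folds are understated. The log2 values were used as deposited.

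Gene symbols came from GEO's platform annotation, in which 21789 probe sets had 1 symbol, 1621 several and 12147 none. The probe set with the highest mean stood for a gene. Genes above the median of all values (6.86) in at least 3 arrays were tested. With limma 3.58.1 (R 4.3.3), lmFit estimated 5 daily means from the 15 samples together, and eBayes followed. P-values were two-sided and adjusted over 11885 genes by Benjamini-Hochberg, with a threshold of 0.05. Tested were P4 minus the average of the earlier daily means, the slope over P0 to P3, P4 against P3, and an F test over the days. Scripts were tested on simulated data. The number of arrays limits the precision.

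Replicate numbers come from the titles, where the first sample of a day has none. Same-numbered samples deviated together from their daily means among P0 to P3 (18 of 18 pairs with a correlation over 0.1, lowest 0.138) and for P4 and P3 (3 of 3, lowest 0.3287). Over all 5 days it was 29 of 30 pairs (lowest 0.0782). The first replicates differed from the others on every day, which by itself raises these correlations for every number. Samples of unlike number were not compared across days. The check therefore cannot show that numbers pair samples, and the replicate block is an alternative only.

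Members and lists were chosen with earlier results of these data known. Every member is accounted for; those that passed a test are given by sample, and of each partner list up to 4 genes by smallest p. Of the other genes named, Frem1, Crym, Podxl, Ptpro, Tek, Krt8, Gata3, Lrp2, Osr1, Meox1, Cited1, Gdnf, Wnt4, Ccnd1, Emx2, Dkk1, Foxd1, Pdgfra, Dcn, Fermt1, Fermt2 and Tns3 were chosen after their values were seen. Levels of different probe sets were not compared. Promoter sequences are from RefSeq.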

Additional observations from a re-analysis of the deposited data

How the results depend on the processing

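The alternatives were no filter, quantile normalization, the first replicates as a term in the fit, replicates 2 and 3 alone, the replicate number as a block, the mean of a gene's probe sets, an intensity trend in eBayes, and each sample left out. No value that passed a test changed direction, and the intensity trend moved no count by over 1.5 times. Each member has 1 probe set with its symbol alone, so the mean of probe sets could not change a member's own value. Members up at P4 against cap mesenchyme numbered 14 with the first replicates as a term and 14 with the replicate block, against 8 (6.41% and 6.61% of all genes, against 3.41%). The replicate block also gave 12 members in the F test, and the first replicates as a term gave 11, against 7 (12.5% and 11.7% of all genes, against 5.37%). For the slope, members up numbered 5 after quantile normalization, 6 with the first replicates as a term and 6 with the replicate block, against 3, and 1 member, Itgb5, was down in each of these and in replicates 2 and 3 alone, against 0. Members up from P3 to P4 numbered 4 with the first replicates as a term and 4 with the replicate block, against 2. Without the filter, Nid2 missed the threshold at P4 (adjusted p = 0.0548) and in the F test (0.0638). In the F test Nid2 also missed the threshold when a sample was omitted (adjusted p up to 0.151), except when that sample was P2 replicate 1, P3 replicate 1 or P4 replicate 1.

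With 1 sample left out, the counts ran from 4 to 9 up and 0 to 1 down at P4 against cap mesenchyme, from 2 to 5 up and 0 to 0 down for the slope, from 2 to 2 up and 0 to 0 down from P3 to P4, and from 6 to 8 in the F test. Over the same refits the chain balances ran from 1.51 to 1.91 for Lama1 minus Lama4, -2.34 to -2.07 for Lama5 minus Lama1, -0.92 to -0.72 for Lamb2 minus Lamb1, -0.64 to -0.27 for Col4a3 minus Col4a1, -0.59 to -0.18 for Col4a4 minus Col4a1, -0.57 to -0.33 for Col4a5 minus Col4a1, -0.40 to -0.03 for Col4a6 minus Col4a2, -1.27 to -0.97 for Itga3 minus Itga6, 0.94 to 1.25 for Itga3 minus Itga9 and 0.44 to 0.77 for Nid2 minus Nid1.

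By exact test, the 5 pairs that had not passed each did so under some alternative. Lamb2 minus Lamb1 was -0.83 after quantile normalization (adjusted p = 0.033), and it also passed without P3 replicate 1, 2 or 3. Nid2 minus Nid1 was 0.67 without P3 replicate 3 (0.0481). Col4a3 minus Col4a1 was -0.45 with arrangements kept within the 2 sets of samples (0.00741), -0.49 after quantile normalization (0.011) and -0.48 in replicates 2 and 3 alone (0.037), and it also passed without P0 replicate 1, P3 replicate 2 or 3, or P4 replicate 1. Col4a4 minus Col4a1 was -0.38 within the sets (0.0389), and Col4a6 minus Col4a2 was -0.22 within the sets (0.019) and -0.25 after quantile normalization (0.0314), and it also passed without P4 replicate 1. The cause of these changes was not tested.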
